A study of Mus musculus with 4 samples.

Results

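The genes described here are 41 genes of DNA replication and S phase, all present among the 25239 genes of the deposited table. They were chosen by symbol for their textbook roles, with earlier results of these data known. They cover origin licensing and the replicative helicase (16 genes), polymerases with their clamp and clamp loader (13), the joining of lagging-strand fragments (2), nucleotide synthesis (3), entry into S phase (3), and chromatin assembly with histone mRNA (4). RNA was sequenced from hindlimb bud cells of FVB mouse embryos at embryonic day 11.5, with 2 libraries from anterior cells positive for mCherry and 2 from central cells negative for it. All 4 libraries came from embryos labelled wild-type that carried a transgene at the H11 locus, in which mCherry is driven by the hsp68 promoter under the human ZRS, a limb enhancer, carrying the substitution 404G>A, so both groups bear the same allele and no group lacks it. The populations were separated by dissection and then by fluorescence sorting, so they differ in position and in reporter state together. The labels do not say whether embryos were pooled or whether replicates came from separate litters, so p-values measure only the spread between these libraries, which may be technical.

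Chromosomes are copied once in each cell cycle. In G1 the origin recognition complex, with Cdc6 and Cdt1, loads the ring of Mcm2 to Mcm7 onto origins, and in S phase Cdc45 and the GINS complex join that ring to make the active helicase. Pol alpha-primase starts each strand, replication factor C loads the sliding clamp Pcna, and the delta and epsilon polymerases extend the DNA, while E2F factors switch many of these genes on as cells pass from G1 into S. The limb bud at this stage grows by division of mesenchymal progenitors, and cells entering cartilage condensations or muscle divide less as they differentiate.

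Replication and S-phase genes differed little in size between the populations, and nearly all of the differences that passed the test were higher in anterior cells. In the quasi-likelihood fit of edgeR over 14610 genes, with p-values adjusted by Benjamini-Hochberg and a threshold of 0.05, 15 of the 41 were called higher in anterior cells, 1 was called lower and 25 were not called. Of all genes tested, 10.7% were called higher and 12.3% lower, or 22.9% in either direction. Among the 7970 tested genes whose mean level lay in the same range as these 41 (18.0 to 504 CPM, which are counts normalised to library size with TMM factors), the shares were 14.8% higher and 10.1% lower. The median log2 fold change of the 41 genes was 0.16 (range -0.30 to 0.50), beside -0.01 over all genes tested and 0.04 over the genes of the same range. No gene of the 41 reached a 1.5-fold difference, whereas 3.92% of all tested genes were called higher by at least that much, and the largest fold among the 41 was 1.42. Summed over the 41 genes, anterior libraries reached 7443 and 7664 CPM and central libraries 6550 and 6744. The groups did not overlap in this sum, which was 1.14-fold higher in anterior cells. In 30 of the 41 genes both anterior libraries lay above both central ones (30.8% of all tested genes and 39.9% of those in the same range), in 2 both lay below, and 9 had overlapping groups. Groups without overlap in either direction made up 63.5% of all tested genes.

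These counts rest on small differences close to the threshold. When libraries were scaled by library size alone or by upper-quartile factors, 9 genes were called (8 higher, 1 lower), 7 were called without anterior replicate 1, 3 without anterior replicate 2, and 4 at a threshold of 0.01. Only Mcm10, Rrm2 and Uhrf1 passed in all 14 alternative fits. In such bulk samples, differences in the share of S-phase cells, in RNA per cell and in cell mix cannot be told apart.

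**Figure D1:**
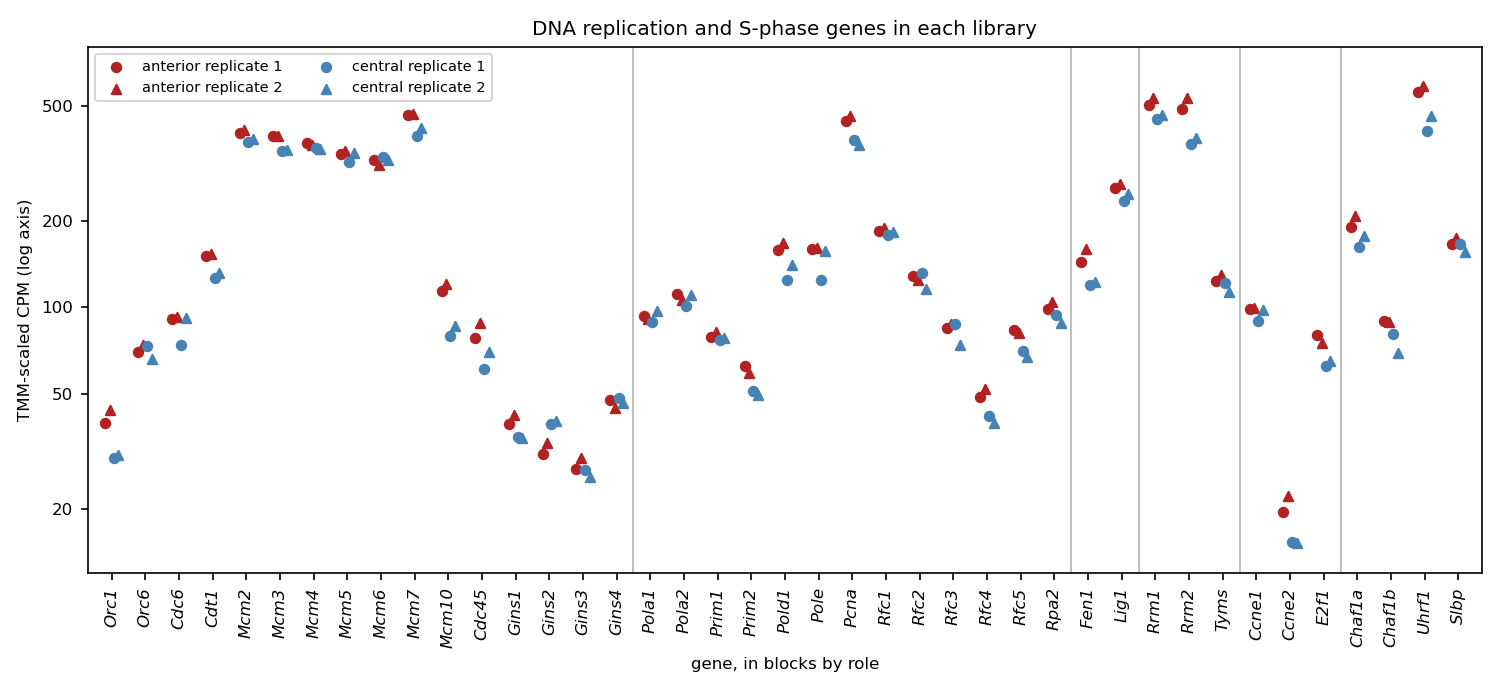
TMM-scaled CPM (log axis) of the 41 replication and S-phase genes in each of the 4 libraries, in blocks by role from licensing on the left to chromatin assembly on the right. Anterior points lie above both central points for 30 genes, as for Mcm10, Rrm2 and Uhrf1, and below them for Gins2 and Mcm6.

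The plot of CPM by library shows that the spacing between groups was narrow for the ring of Mcm2 to Mcm7 and wider for Orc1, Mcm10, Rrm2, Ccne2 and Uhrf1. To compare levels between genes, CPM was divided by the summed exon length in kilobases of all annotated isoforms (GENCODE M21). On this per-length scale (RPKM) the highest of the 41 was Pcna, at 185 and 193 RPKM in anterior and 159 and 153 in central libraries. Rrm2 came next, at 177 and 192 against 133 and 140. Uhrf1 followed at 132 and 138 against 95.7 and 108, a range that in central cells overlapped with Mcm4 (99.2 and 99.0). The lowest was Ccne2, at 5.56 and 6.35 against 4.39 and 4.36. This order depends on the length used, since genes with long exons in any annotated isoform rank lower. Rrm1, with 11012 exon bases, had a mean of 519 CPM but 47.2 RPKM in anterior libraries. Every one of the 41 genes had at least 472 counts in each library. That lowest count was in Ccne2, whose log2 fold change had a standard error of 0.13, beside 0.06 in Mcm3.

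The promoters of these genes are shown because E2F factors act on genes of this kind. The genes were chosen by role, and a part of E2F in the differences between populations was not tested. RefSeq promoter windows on GRCm38.p6, from 250 bases before to 50 after the transcript start, were found for 33 of the 41 genes. The E2F motif was searched as TTTCCCGC, TTTCGCGC, TTTGCCGC or TTTGGCGC on both strands, and other spellings were not searched. It was present for 13 of 33 genes (39.4%), beside 4.6% of the 11438 tested genes that have a window and 2.6% of all 27025 symbols with one. It was present in 5 of 13 called genes and in 8 of 20 that were not called. The CCAAT box, searched on both strands, was in 21 of the 33 (63.6%) and in 42.8% of the tested genes with a window. It was present in 7 of 13 called genes and in 14 of 20 that were not called. Stretches upstream of the start, outside annotated exons, are given 5′ to 3′ along the gene's strand with the matches in capitals. In the first 5 the capitals mark E2F matches, which overlap in Mcm5 and in the first block of Mcm6, and in the last 2, which are called genes without an E2F match, they mark CCAAT boxes. The stretches are Mcm5 (chr8:75109336-75109435, plus strand), Mcm6 (chr1:128359736-128359835, minus), Cdc6 (chr11:98907993-98908092, plus), Pola1 (chrX:93632214-93632313, minus), Uhrf1 at the second of its listed starts (chr17:56304108-56304207, plus), Mcm10 (chr2:5012810-5012909, minus) and Rrm2 (chr12:24708141-24708240, plus).
Mcm5: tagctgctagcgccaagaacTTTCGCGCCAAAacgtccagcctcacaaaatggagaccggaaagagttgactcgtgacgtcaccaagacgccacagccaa
Mcm6: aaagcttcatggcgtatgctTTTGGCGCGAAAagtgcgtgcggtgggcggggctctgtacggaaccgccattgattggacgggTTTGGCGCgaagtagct
Cdc6: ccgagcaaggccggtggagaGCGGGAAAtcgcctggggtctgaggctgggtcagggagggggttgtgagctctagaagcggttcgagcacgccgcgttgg
Pola1: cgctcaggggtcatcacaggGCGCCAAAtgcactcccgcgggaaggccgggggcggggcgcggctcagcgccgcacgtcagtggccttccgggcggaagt
Uhrf1: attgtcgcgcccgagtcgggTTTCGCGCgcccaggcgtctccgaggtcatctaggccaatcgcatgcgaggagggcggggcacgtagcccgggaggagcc
Mcm10: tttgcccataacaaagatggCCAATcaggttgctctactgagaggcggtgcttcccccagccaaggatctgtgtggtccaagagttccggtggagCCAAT
Rrm2: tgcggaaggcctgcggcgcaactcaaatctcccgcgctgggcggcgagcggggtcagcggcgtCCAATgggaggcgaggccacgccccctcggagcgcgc
The stretches are examples and not a sample of the 33 genes. The called genes with an E2F match were Orc1, Cdt1, Mcm7, Pold1 and Uhrf1, and those not called were Cdc6, Mcm3, Mcm5, Mcm6, Gins3, Pola1, Rfc3 and Lig1.

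Among the 16 licensing and helicase genes, 5 were called higher, 1 lower and 10 were not called, with a median log2 fold change of 0.13. Orc1, an ATP-binding subunit of the origin recognition complex, measured 39.7 and 43.9 CPM in anterior cells and 30.1 and 30.7 in central cells. Both anterior values were above both central ones, and the log2 fold change was 0.46 ± 0.10 (SE; adjusted p = 0.00957). Orc6, another subunit of that complex, had overlapping groups, with 70.2 and 74.1 against 73.6 and 66.0 CPM (log2 fold change 0.05 ± 0.08 SE). Of the loading factors, Cdt1 measured 150 and 153 CPM against 127 and 131 and rose by 0.23 ± 0.06 on the log2 scale (adjusted p = 0.0309). Cdc6 measured 91.4 and 92.7 CPM in anterior cells against 74.1 and 91.6 in central cells. The central replicates of Cdc6 thus differed from each other more than the group means did, and it was not called (log2 fold change 0.15 ± 0.10 SE, adjusted p = 0.329).

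The helicase ring itself was nearly level between the populations. Mcm2 measured 402 and 412 CPM in anterior cells against 376 and 383 in central cells, and Mcm3 392 and 393 against 350 and 353. Neither had overlapping groups, and neither was called (log2 fold changes 0.10 and 0.16, adjusted p = 0.260 and 0.0844). Mcm5 overlapped between groups, at 339 and 348 CPM against 320 and 342 (log2 fold change 0.05 ± 0.06 SE, adjusted p = 0.596). Mcm4 and Mcm6 had log2 fold changes of 0.05 and -0.05 and were not called. Mcm7 was the one ring subunit that was called, at 466 and 468 CPM against 393 and 417 (log2 fold change 0.20 ± 0.06 SE, adjusted p = 0.0461). Its call was lost in 7 of 14 alternative fits. Over the 6 ring subunits, the upper 95% bound of the fold, from the same fit, was at most 1.27, in Mcm7. The summed level of the ring was 2295 and 2296 CPM in the anterior libraries against 2127 and 2175 in the central ones.

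Other genes of this group encode factors that turn the loaded ring into a moving helicase. Mcm10, which is needed for origin firing and helps keep the helicase on its template, showed the largest difference of the 41 genes. It measured 114 and 121 CPM in anterior cells against 79.7 and 86.4 in central cells, a log2 fold change of 0.50 ± 0.08 (SE; 1.42-fold, adjusted p = 0.00194). The groups were well apart, the lowest anterior value being above the highest central one. Cdc45 measured 78.3 and 88.0 CPM against 61.0 and 69.8, and rose by 0.34 ± 0.10 on the log2 scale (adjusted p = 0.0320). Of the GINS subunits, the partners of Cdc45 in the helicase, Gins1, Gins3 and Gins4 had log2 fold changes of 0.20, 0.12 and -0.03 and were not called.

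Gins2 was the single gene of the 41 called lower in anterior cells. It measured 31.1 and 33.9 CPM there against 39.5 and 40.4 in central cells, with no overlap between groups, and its log2 fold change was -0.30 ± 0.09 (SE; adjusted p = 0.0494). The call is marginal, since it was lost in 7 of 14 alternative fits. Over all 14 the edgeR, DESeq2 or limma-voom adjusted p ranged from 0.0316 to 0.283 and the log2 fold change from -0.36 to -0.23. The exons of Gins2 also share 2758 bases, 67.3% of their length, with exons of Gse1 on the opposite strand, and no source used here says whether the counting used strand. Gse1 measured 94.2 and 82.4 CPM in anterior cells and 91.1 and 105 in central cells (log2 fold change -0.15 ± 0.10 SE, adjusted p = 0.302), and its part in the Gins2 value was not tested. Smaller opposite-strand overlaps lay in genes called higher: Ccne2 (17.4% of exon length), Rfc4 (12.7%), Rfc5 (10.7%), Mcm7 (7.25%, with Ap4m1), Cdc45 (5.96%) and Fen1 (5.37%). The part of these overlaps in the called rises was not tested either.

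**Figure D2:**
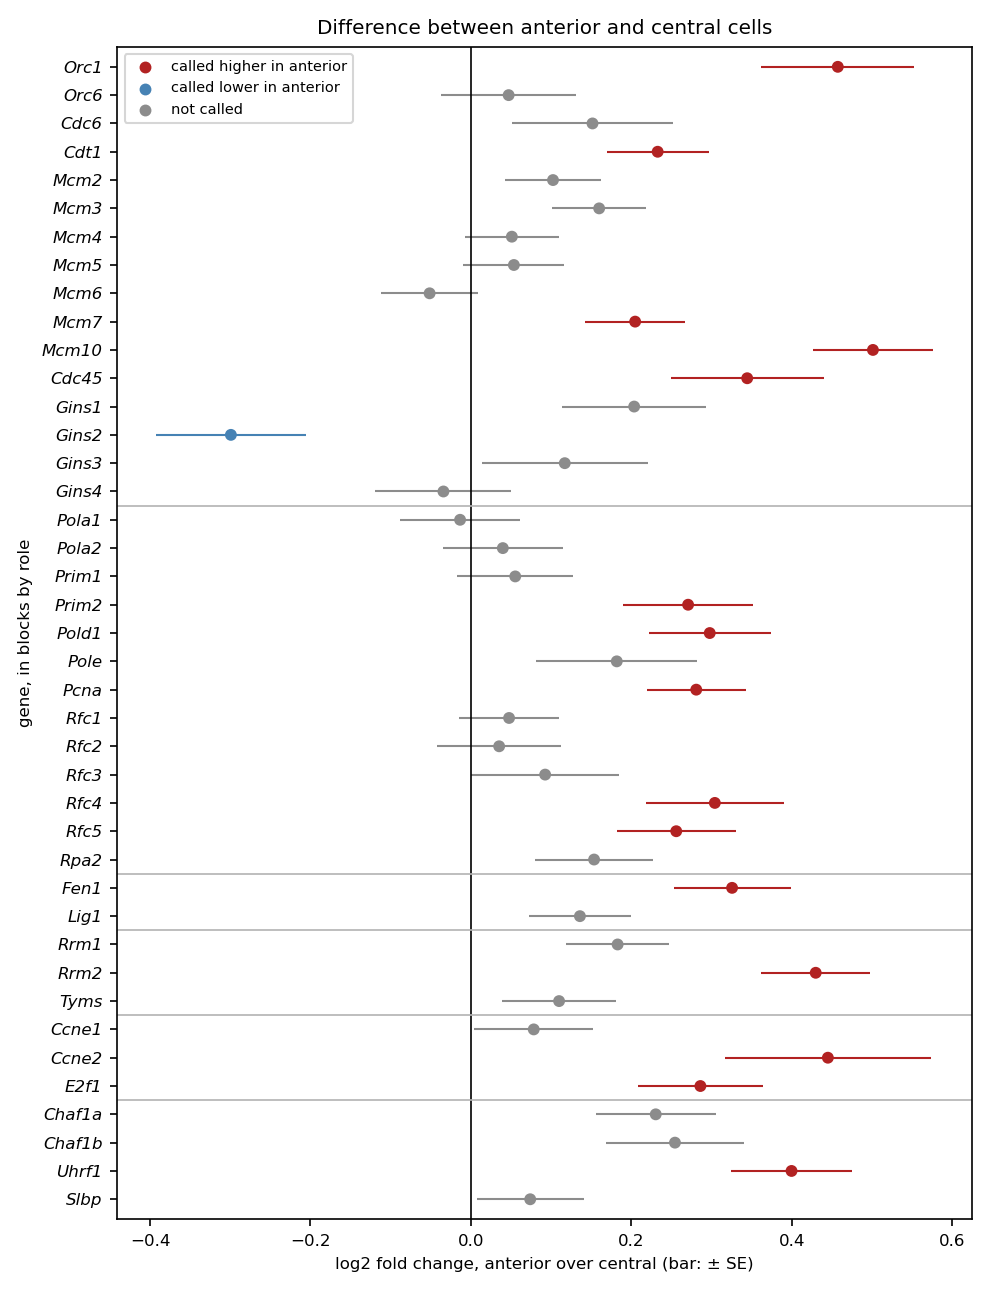
Log2 fold change of anterior over central cells for each of the 41 genes (point) with its standard error (bar), from the fit over 14610 genes with 2 libraries per group, in the same blocks by role. The 15 genes called higher spread over every block, with Mcm10 farthest right at 0.50, and Gins2 alone is called lower at -0.30.

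Of the 13 polymerase, clamp and clamp loader genes, 5 were called higher and 8 were not called (median log2 fold change 0.15). Pcna, the sliding clamp that tethers polymerases and repair proteins to DNA, measured 445 and 463 CPM in anterior cells against 380 and 366 in central cells. The groups were apart, and the log2 fold change was 0.28 ± 0.06 (SE; adjusted p = 0.0123). Pold1, the catalytic subunit of polymerase delta, rose by 0.30 ± 0.08 (adjusted p = 0.0232). Pole, the catalytic subunit of polymerase epsilon, measured 159 and 160 CPM against 124 and 157, where central replicate 1 stood low, and was not called (adjusted p = 0.238). Within Pol alpha-primase, Prim2 was called higher (log2 fold change 0.27 ± 0.08 SE, adjusted p = 0.0426), while Pola1, Pola2 and Prim1 had log2 fold changes of -0.01, 0.04 and 0.06. Of the clamp loader subunits, Rfc4 and Rfc5 were called higher (0.30 and 0.26, adjusted p = 0.0347 and 0.0376) and Rfc1, Rfc2 and Rfc3 were not called, at 0.05, 0.04 and 0.09. The calls of Rfc4 and Rfc5 were each lost in 5 of 14 alternative fits and that of Prim2 in 6, and differences between subunits were not tested. Rpa2, part of the single-strand binding protein, was not called (0.15, adjusted p = 0.177).

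The enzymes that finish the lagging strand and those that supply nucleotides were all on the higher side in sign. Of these 5 genes, 2 were called higher, beside 10.7% of all genes tested. Fen1, the nuclease that trims the flap of each Okazaki fragment, was called higher (log2 fold change 0.33 ± 0.07 SE, adjusted p = 0.0133), and the ligase gene Lig1 was not (0.14, adjusted p = 0.163). Rrm2, the small subunit of ribonucleotide reductase and the part whose amount follows S phase, measured 489 and 532 CPM in anterior cells against 370 and 388 in central cells. Its log2 fold change was 0.43 ± 0.07 (SE; 1.35-fold, adjusted p = 0.00253). Rrm1, the large subunit of the same enzyme, had a log2 fold change of 0.18 ± 0.06 and was not called (adjusted p = 0.0727). Thymidylate synthase, Tyms, was not called either (0.11, adjusted p = 0.311).

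The regulators of S-phase entry included both E-type cyclins, which drive the kinase Cdk2. Ccne2 measured 19.4 and 22.2 CPM in anterior cells against 15.3 and 15.2 in central cells, and rose by 0.44 ± 0.13 on the log2 scale (adjusted p = 0.0376). Its call was lost in 5 of 14 alternative fits, one of them without anterior replicate 2, the higher of the anterior libraries. Ccne1, its paralogue and the more abundant of the pair, measured 98.4 and 99.7 CPM against 89.7 and 97.9 and was not called (log2 fold change 0.08 ± 0.07 SE, adjusted p = 0.501). E2f1, a transcriptional activator of many of the genes described here, measured 80.2 and 75.3 CPM against 62.6 and 65.0 (log2 fold change 0.29 ± 0.08 SE, adjusted p = 0.0295). The E2f1 groups did not overlap.

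Of the chromatin genes, Uhrf1 was called higher and Chaf1a, Chaf1b and Slbp were not called. Uhrf1, which recruits the maintenance methyltransferase to newly copied DNA, measured 560 and 587 CPM in anterior cells against 407 and 462 in central cells. That was a log2 fold change of 0.40 ± 0.08 (SE; adjusted p = 0.00598), with the groups apart. The large subunits of chromatin assembly factor 1, Chaf1a and Chaf1b, had log2 fold changes of 0.23 and 0.25 with adjusted p = 0.0572 and 0.0663. The exons of Chaf1a share 52.5% of their length with Ubxn6 on the opposite strand, which measured a log2 fold change of 0.00. Slbp, the protein that binds the stem-loop of histone mRNA, overlapped between groups at 165 and 173 CPM against 166 and 156 (0.07 ± 0.07 SE, adjusted p = 0.479).

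A further 78 genes of replication and S phase, listed by role, showed a like spread of values. Of these, 29 were called higher, 1 lower and 48 were not called, with a median log2 fold change of 0.20. Among the called genes, the largest rises were in Cad, the enzyme that opens pyrimidine synthesis (391 and 380 CPM against 254 and 306, log2 fold change 0.46), and in E2f7, an E2F family repressor (129 and 120 against 79.8 and 102, 0.45). Next among the called genes came Ticrr, which works in origin firing (93.8 and 85.5 against 64.8 and 69.3, 0.42), and Shmt1, a folate enzyme that feeds thymidylate synthesis (72.3 and 74.3 against 53.6 and 56.7, 0.41). Their edgeR adjusted p-values ran from 0.00619 in Cad to 0.0201 in E2f7. Cdc7, the catalytic subunit of the kinase that triggers origin firing, was the single gene of the 78 called lower, at 57.7 and 58.9 CPM against 76.6 and 78.3 (log2 fold change -0.41 ± 0.07 SE, adjusted p = 0.00525). Dbf4, the activating subunit of that same kinase, was called higher, at 130 and 127 CPM against 100.5 and 97.2 (0.38 ± 0.07 SE, adjusted p = 0.00419). The pair therefore moved in opposite directions, each with groups that did not overlap. By role, the genes called higher were 6 of 15 in licensing and firing, 1 of 18 at the fork and polymerases, 1 of 4 in lagging-strand joining, 6 of 10 in nucleotide synthesis, 3 of 8 in S-phase entry, 4 of 8 in chromatin assembly and 8 of 15 among S-phase transcripts, beside 10.7% of all genes tested. Differences between roles were not tested. The called fork gene was Clspn, a checkpoint protein (0.27, adjusted p = 0.0339). The count of 30 called genes fell to 16 with library size alone or with upper-quartile factors, and to 14 and 10 without anterior replicate 1 and 2.

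**Figure D3:**
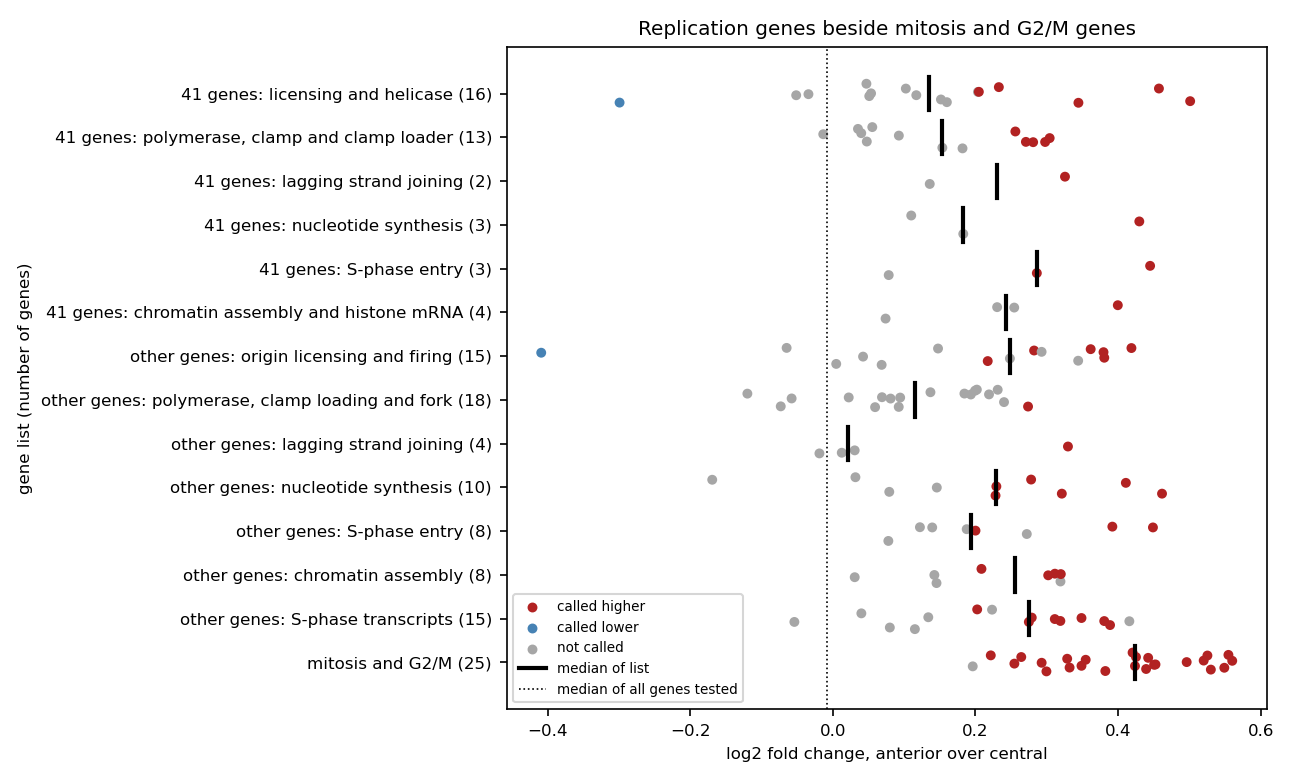
Log2 fold change of anterior over central cells (horizontal axis) for each gene of the 41, of the 78 further replication genes and of 25 mitosis and G2/M genes, with a row for each role. Points are genes, black bars are the medians of each row and the dotted line is the median of all genes tested: the mitosis bar lies at 0.42, to the right of the median of every replication list, and blue points are Gins2 and Cdc7.

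Genes of mitosis and G2, the cell cycle group most like this one, differed by more in the same libraries. Of 25, 24 were called higher, beside 10.7% of all genes tested, and Cenpa was not called (adjusted p = 0.0727). The median log2 fold change was 0.42, with a range of 0.20 to 0.56. This list, too, was chosen with earlier results of these data known. Every one of the 25 lay above the median of the 41 replication genes, and 4 of the 41 lay above the mitosis median, namely Mcm10, Orc1, Ccne2 and Rrm2. Cdk1, the mitotic kinase, measured 166 and 163 CPM in anterior cells against 121 and 102 in central cells (log2 fold change 0.56 ± 0.09 SE, adjusted p = 0.00232). Aurkb, Ccnb1 and Plk1 followed at 0.55, 0.55 and 0.53. Summed over the list, the level was 5848 and 5839 CPM against 4296 and 4468, a 1.33-fold difference between group means, beside 1.14-fold for the 41 genes. The difference between the lists is a description, since the genes of a list are not replicates. In promoter letters the lists also differed: the E2F motif was in 1 of 22 mitosis windows (4.55%) and the CCAAT box in 18 (81.8%).

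Markers of other cell types differed between the same libraries, and their part in the results was not tested. Limb mesenchyme genes were abundant in all libraries, at 1659 to 2152 CPM summed over 5 genes, 2 of which were called higher. Of 10 red cell genes, 8 were tested and all 8 were called higher, with sums of 3294 and 8400 CPM in anterior against 5.97 and 9.48 in central libraries, and Hba-a1 and Hba-a2 were listed at 0 in every library. White cell markers summed to 5.16 to 11.8 CPM, with 1 of 4 called higher. Called lower were 8 of 8 myogenic genes (9.61 to 18.6 CPM summed in anterior against 216 to 238 in central cells), 4 of 6 endothelial (4.92 to 7.87 against 22.6 to 31.9) and 6 of 7 surface ectoderm genes (9.71 to 9.99 against 44.3 to 131). Among 6 cartilage genes 3 were called lower, with sums of 265 to 357 against 1062 to 1338 CPM. Schwann precursor genes summed to 4.98 to 5.34 against 9.27 to 9.90, with 1 of 4 called lower. Pax7, Myog, Matn1, Sox10 and Foxd3 had 0 counts in both anterior libraries. The ribosomal precursor Rn45s took 0.323% and 1.20% of the anterior counts and 0.682% and 0.411% of the central ones, so it varied within groups.

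**Figure D4:**
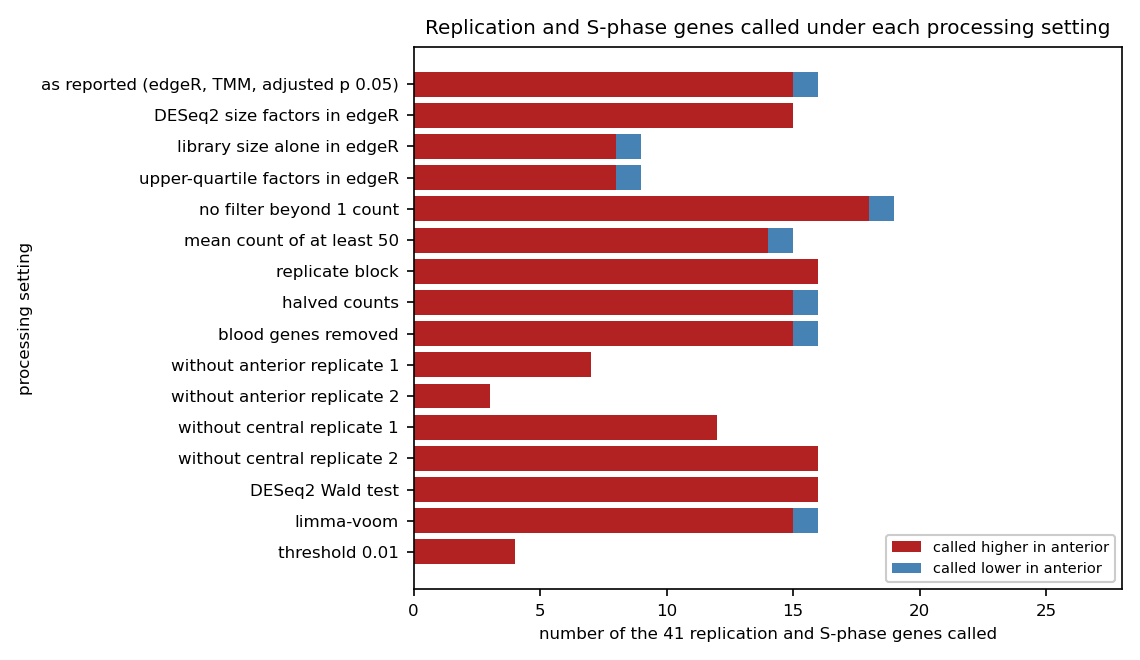
Number of the 41 genes called higher (red) or lower (blue) in anterior cells under each processing setting, with the reported setting at the top. The bar is shortest without anterior replicate 2, at 3 genes, and longest with no filter beyond 1 count, at 19.

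The plot of called genes by setting shows how the number of calls moved between settings. The signs of all 41 fold changes, which the plot does not show, were steadier. Across the 14 alternative fits, 33 of the 41 genes kept a higher level in anterior cells in every fit and 2, Gins2 and Mcm6, a lower one. The other 6 genes changed sign in at least 1 fit, and none of them was called. The median log2 fold change of the 41 genes stayed between 0.12 and 0.19 in these fits. All of these fits reuse the same libraries, and how many of all tested genes kept their sign was not counted.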

How the data were processed

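The authors deposited whole-number read counts per gene symbol, not normalized, for 4 libraries of 30080925 to 33257383 counts. STAR 2.7.9a, HTSeq and DESeq2 with build mm10 are named in the submitters' processing notes, without their roles; annotation and strand setting are not given in the sources used here. Between 72.8% and 75.6% of counts from 1 to 10 were even, as when both mates of a pair are counted, and halved counts were one of the alternatives. Genes passing filterByExpr (14610) were fitted with edgeR 4.0.16 in R 4.3.3 (TMM, quasi-likelihood F test, 2 residual degrees of freedom). CPM values are TMM-scaled, and a standard error is the absolute log2 fold change over the square root of F. The 41 genes, the further lists and the naming rule were chosen with earlier results of these data known. That rule gives values in each library for the 6 largest called rises and falls and 12 fixed genes. It names the 4 largest called changes each way in the further lists. Outside that rule, values in single libraries are also given for Orc6, Mcm4, Mcm7 and Pole, and Dbf4, Clspn and Cenpa are named. Dbf4 was set beside Cdc7 as the other subunit of its kinase. The pipeline was tested on simulated data, with planted differences larger than those of most of the 41 genes. Replicates 1 and 2 occur in both groups. Same-numbered libraries deviated together at r = 0.0640 across genes (Spearman 0.0336), so the numbers were not taken to pair libraries. With a replicate block, the common coefficient of variation between replicates in edgeR was 0.0906, beside 0.111 without it. The block fit called 3586 genes, beside 3351. The labels do not say what same-numbered libraries share. Alternatives were other scalings, DESeq2 1.42.0, limma-voom (limma 3.58.1), filters, a replicate block, removal of blood genes, a threshold of 0.01 and leaving out each library. No count column was left unmatched. Coordinates are from GENCODE M21 and RefSeq on GRCm38, the assembly of mm10.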

Additional observations from a re-analysis of the deposited data

How the results depend on the processing

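Each of the 41 genes had at least 472 counts in every library, but 2 libraries per group leave calls near the threshold uncertain. The count of called genes among the 41 was 16, and moved to 9 with library size alone, to 9 with upper-quartile factors and to 4 at a threshold of 0.01. For the 78 further genes it moved from 30 to 16, 16 and 9 under these settings, and over all genes from 3351 to 1690 at 0.01. Fits that left out one library, in which the lone library of a group is assumed to vary like the other group, called 3 to 16 of the 41, 10 to 34 of the 78 and 2009 to 3697 of all genes. The mitosis count stayed within 16 to 24. The median of the 41 was 0.129 with library size alone, 0.122 with upper-quartile factors and 0.147 to 0.191 without one library, while all genes tested had medians of -0.0398 and -0.0462 under those scalings. Relative to all genes it was 0.169, 0.169 and 0.169 with TMM, library size and upper-quartile factors. A change of scaling shifts all genes by nearly the same amount, so this difference could hardly move and is no check. With the replicate block 16 of the 41 were called, all higher, and 14 of them were also called without it; Gins2 (adjusted p = 0.0521) and Mcm7 (0.0552) were not. Sign changed in genes that were never called: Rfc2 at -0.00262 with upper-quartile factors, and without one library Orc6 (-0.0276 to 0.130), Gins4 (-0.0751 to 0.0139), Pola1 (-0.0736 to 0.0539, with 0.00778 without anterior replicate 2), Pola2 (-0.0220 to 0.109), Rfc2 (-0.0511 to 0.131) and Rfc3 (-0.0217 to 0.221). For these changes the cause was not tested.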

Other observations

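Histone genes of the replication-dependent clusters, whose mRNA normally ends in a stem-loop in place of a poly(A) tail, are the classic S-phase transcripts downstream of Slbp. The naming rule for them covered old symbols only and matched 9 genes, so current symbols were added after the table was seen, for 59 genes in all. They were low here, with 10 of 59 at 0 in every library and no gene above a mean of 4.09 CPM. Their sum was 43.6 and 50.7 CPM in anterior against 57.0 and 44.0 in central cells, so the groups overlapped. Of 41 tested, edgeR called 0 higher and 1 lower, with 0 higher and 1 lower at an unadjusted p under 0.05, and DESeq2 and limma-voom each called 0 higher and 1 lower. The gene called by edgeR was H2bc21, named after its values were seen, at 60 and 86 counts in anterior cells against 158 and 188 in central cells (log2 fold change -1.21 ± 0.31 SE, edgeR adjusted p = 0.0237). Many of these genes are near-identical copies, so single values are uncertain.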
